A study of Mus musculus with 8 samples.

Results

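The insulin-like growth factor (IGF) system was examined through 10 of the 18540 genes in the count table, taken by symbol: the ligands Igf1 and Igf2, the receptors Igf1r and Igf2r, and the binding proteins Igfbp2, Igfbp3, Igfbp4, Igfbp5, Igfbp6 and Igfbp7. RNA was sequenced from the wound skin of 8 mouse samples, 4 controls and 4 treated samples. Z1C2Z is the form of the ZCZ nanocomposite (ZnO2 and CeO2 particles in the zinc framework ZIF-8) with more CeO2, and the comparison asked which transcripts in the wound differed after it. The labels give only skin as the tissue and con or shiyan as the group, and the name Z1C2Z comes from the matching sample numbers in the study's heatmaps, while its text and methods call the sequenced treatment only ZCZ, of which Z1C1Z was also tested on wounds. Samples are named by group and number (such as control-1), with the numbers 1, 2, 3 and 5 in the controls and 1, 2, 4 and 5 in the treated group, and values are always given in that order. According to the methods, circular full-thickness wounds of 10 mm were made on the back, controls received PBS, and sequenced skin came after 15 days of treatment. The study's results section gives the dose as 100 μg/kg, injected at the wound edge and repeated weekly. Wounds were made on C57BL mice 6 weeks of age and on db/db mice 10 weeks of age, which lack a working leptin receptor and become obese and diabetic. The sequenced strain is not stated, although the series title speaks of diabetic wounds, and each mouse carried a pair of wounds, so which samples share an animal is unknown. The p-values therefore measure the spread between these samples, which may be partly technical.

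IGF1 and IGF2 are secreted peptides that act through IGF1R, a receptor tyrosine kinase that signals through IRS adaptors to the PI3K-AKT and MAP kinase pathways and favours growth and survival. IGF2R has no kinase domain and takes IGF2 into the cell for degradation, while the binding proteins hold the ligands in the extracellular space and are cut by proteases that release them. In skin, fibroblasts of the dermis and the dermal papilla are known sources of IGF1, which acts on keratinocytes and on the growing hair follicle.

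All 10 genes were well measured, with 701 to 24184 counts per gene and sample and library totals of 28856790 to 38974888 counts. Levels are given as CPM, the count scaled to an equal library size by the TMM method. None of the 10 genes passed the test in either direction (edgeR's quasi-likelihood test, Benjamini-Hochberg adjusted p under 0.05). Among all 15147 tested genes, 4.28% were called higher and 3.85% lower in the Z1C2Z samples. For 9 of the 10 genes the log2 fold change (Z1C2Z minus control) was under 0, with a median of -0.24, against 48.9% of all tested genes and a median of 0.01. At an unadjusted p under 0.05 there were 3 of 10 genes, Igf2, Igf2r and Igfbp7, and 28.0% of all tested genes. No gene of the 10 had groups without overlap, whereas 8.45% of all tested genes had every Z1C2Z value above every control value and 8.82% had every one below.

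**Figure D1:**
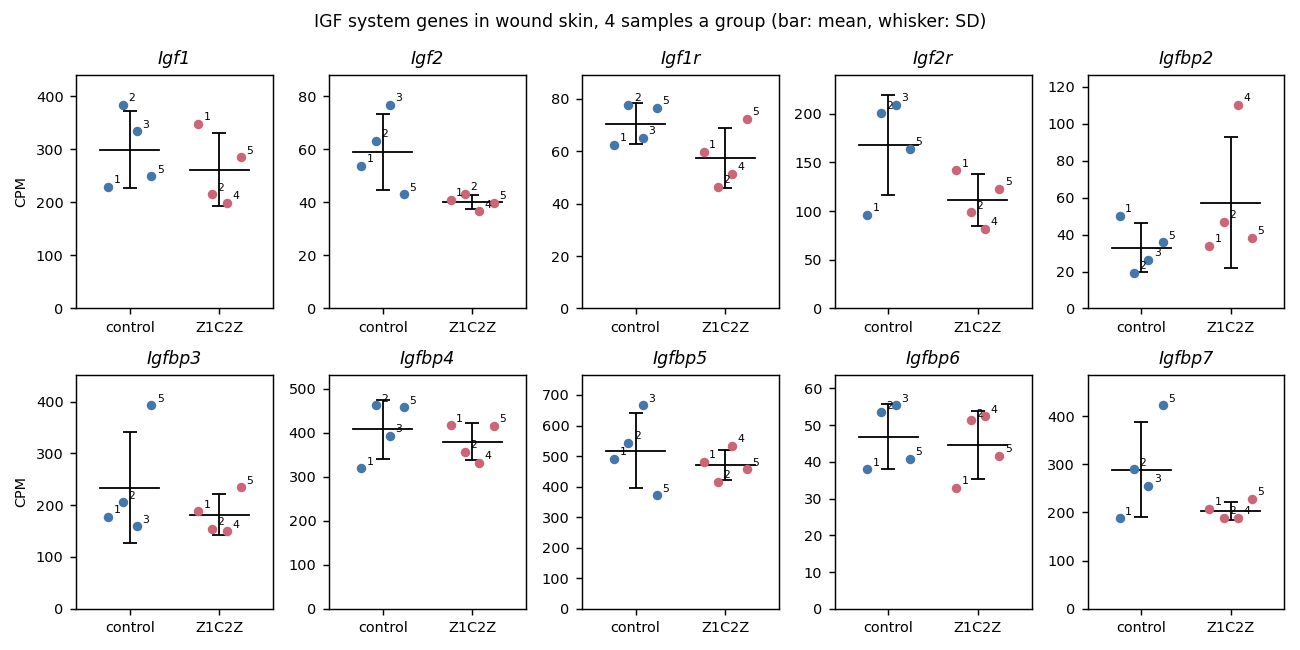
CPM of the 10 IGF system genes in each sample (points, numbered as the samples), with the group mean (bar) and SD (whisker) of 4 control and 4 Z1C2Z samples. The ranges of the 2 groups overlap for every gene, and the Z1C2Z values of Igf2 lie closest together, between 36.6 and 43.3 CPM.

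The ligand nearest to the threshold was Igf2, an imprinted growth factor expressed from the paternal allele and most active before birth. Its level was 53.6, 63.2, 76.7 and 43.0 CPM in the controls and 40.9, 43.3, 36.6 and 39.8 CPM in the Z1C2Z samples. Of the 4 Z1C2Z samples, 3 lay below all controls, and the overlap came from control-5 and Z1C2Z-2. The control mean was 59.1 ± 14.3 CPM and the Z1C2Z mean 40.1 ± 2.77 CPM (SD over the 4 samples of a group, as for all means). On the log2 scale the fold change was -0.56, with a standard error (SE) of 0.16 and a 95% interval of -0.92 to -0.19. The adjusted p of edgeR was 0.0648, and the exact two-sided permutation test gave 0.0571, where 4 samples against 4 allow no value under 0.0286. DESeq2 called the gene at an adjusted p of 0.0144, the only 1 of 15 alternatives to do so. None of the 8 fits that left out 1 sample called Igf2 (edgeR adjusted p from 0.0618 to 0.169). Its log2 fold change in them ran from -0.68 to -0.40. In the GENCODE annotation the exons of Igf2 share 3596 bp with the same-strand model Gm49394 and 98 bp with the antisense gene Igf2os, so its reads may not all belong to Igf2.

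Igf1, the ligand that growth hormone induces and that fibroblasts secrete locally, was more abundant than Igf2 and more scattered. The controls had 229.6, 384, 334 and 249 CPM and the Z1C2Z samples 349, 215, 199 and 285 CPM. Samples of the 2 groups were interleaved, with Z1C2Z-1 second only to control-2. The log2 fold change was -0.19 (SE 0.22, 95% interval -0.68 to 0.30, edgeR adjusted p = 0.598), which leaves room for a fold between 0.623 and 1.23. It was -0.35 without Z1C2Z-1 and -0.0513 without control-2.

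Of the receptors, Igf2r, which clears IGF2 and carries lysosomal enzymes, had 96.2, 201, 209 and 164 CPM in the controls and 142, 98.9, 81.9 and 123 CPM in the Z1C2Z samples. Control-1 lay among the Z1C2Z samples and the other 3 controls above them all. The means of 168 ± 51.5 and 111 ± 26.5 CPM gave a log2 fold change of -0.59 (SE 0.25, 95% interval -1.16 to -0.0195, edgeR adjusted p = 0.166, exact permutation p = 0.143). Without control-1 the log2 fold change was -0.79 and the gene was called lower, at an edgeR adjusted p of 0.0427. This was the only 1 of the 15 alternatives that called Igf2r. The log2 fold change was -0.46 without control-3 (edgeR adjusted p = 0.321) and -0.47 without Z1C2Z-4 (edgeR adjusted p = 0.352).

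Igf1r, the signalling receptor, had 62.4, 77.6, 65.1 and 76.6 CPM in the controls and 59.8, 46.4, 51.3 and 72.5 CPM in the Z1C2Z samples. Z1C2Z-5 stood within the control range and the other 3 Z1C2Z samples below it. The log2 fold change was -0.29 (SE 0.15, 95% interval -0.62 to 0.038, edgeR adjusted p = 0.226).

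Igfbp7, a secreted protein with weak affinity for IGFs that is abundant in vessel walls, had the lowest unadjusted p among the binding proteins. The controls had 188, 289.6, 255 and 422 CPM and the Z1C2Z samples 207, 189, 189 and 229 CPM. Control-1 was the lowest of all samples and control-5 the highest, while the Z1C2Z samples stayed within a narrow range. The means were 289 ± 98.4 and 203 ± 18.9 CPM, with a log2 fold change of -0.51 (SE 0.21, 95% interval -0.99 to -0.0219, edgeR adjusted p = 0.162, exact permutation p = 0.143). Without control-1 it was -0.67 and the gene was called lower (edgeR adjusted p = 0.0490), and without control-5 it was -0.26 (edgeR adjusted p = 0.374). The 8 endothelial markers (Pecam1, Cdh5, Kdr and others) summed to 338, 803, 621 and 892 CPM in the controls and 424, 335, 305 and 555 CPM in the Z1C2Z samples, lowest among the controls in control-1 and highest in control-5, the order that Igfbp7 had among the controls. Of these markers 7 had a log2 fold change under 0, while Cldn5 went the other way (0.39). None of them was called. The 8 pericyte and smooth muscle markers had that order among the controls as well, with sums of 923, 1393, 1327 and 1774 CPM. In the Z1C2Z samples these summed to 862, 868, 757 and 989.8 CPM. The part of either marker list in the Igfbp7 values was not tested. The exons of Igfbp7 also share 85 bp with Polr2b on the opposite strand.

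Igfbp2 was the only gene of the 10 with a log2 fold change over 0. This binding protein carries an integrin-binding motif and is made by several fetal and adult tissues. Its level was 50.3, 19.5, 26.5 and 35.7 CPM in the controls and 33.9, 46.9, 110.2 and 38.2 CPM in the Z1C2Z samples. The difference rested on Z1C2Z-4, since the other 3 Z1C2Z samples lay within the control range. The log2 fold change was 0.80 (SE 0.41, 95% interval -0.13 to 1.73, edgeR adjusted p = 0.239), and without Z1C2Z-4 it was 0.27 (edgeR adjusted p = 0.649).

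Igfbp3, the main carrier of IGF1 in blood, had 178, 206, 159 and 393 CPM in the controls and 188, 154, 149.7 and 235 CPM in the Z1C2Z samples. Sample 5 of each group was its highest, and control-5 stood far above the other controls. The log2 fold change was -0.36 (SE 0.28, 95% interval -1.005 to 0.27, edgeR adjusted p = 0.430), and without control-5 it was 0.00935.

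Igfbp4, Igfbp5 and Igfbp6 had the differences closest to 0. Igfbp5, which binds to the extracellular matrix, ranged from 372 to 666 CPM in the controls and from 416 to 533 CPM in the Z1C2Z samples, with a log2 fold change of -0.13 (95% interval -0.51 to 0.24, edgeR adjusted p = 0.633). Igfbp4, an inhibitor of IGF action that the protease PAPP-A cuts, ranged from 319 to 463 and from 332 to 418 CPM, with a log2 fold change of -0.10 (95% interval -0.41 to 0.21, edgeR adjusted p = 0.662). Igfbp6, which prefers IGF2, ranged from 38.0 to 55.4 and from 32.9 to 52.4 CPM, with a log2 fold change of -0.0734 (95% interval -0.48 to 0.33, edgeR adjusted p = 0.817). For these 3 genes the intervals span folds from 0.701 to 1.26.

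**Figure D2:**
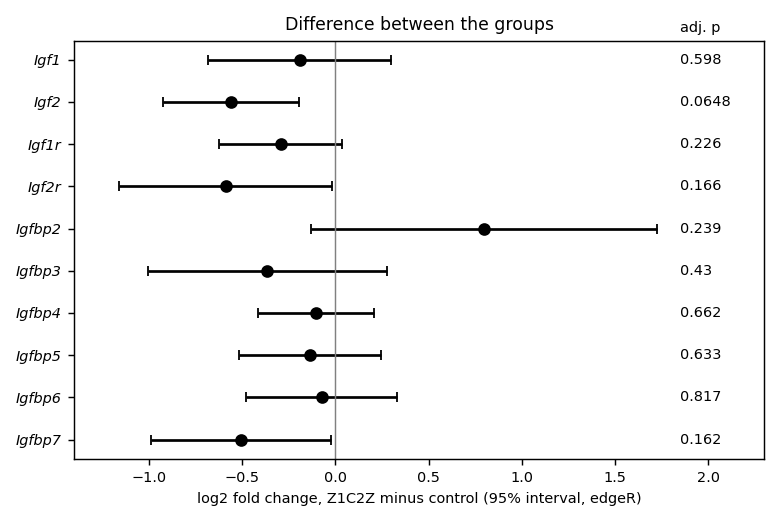
Log2 fold change (Z1C2Z minus control) of each gene with its 95% interval from the edgeR fit of 4 against 4 samples, and the adjusted p at the right. Intervals lie under 0 for Igf2, Igf2r and Igfbp7, and no adjusted p is under 0.05, the lowest being 0.0648 for Igf2.

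Levels were compared between genes as CPM per kb of exon. The 5 most abundant transcripts of the system were all binding proteins, while Igfbp2 stood lower in the order. In the controls Igfbp7 came first at 239 ± 81.4 CPM per kb, followed by Igfbp4 (104 ± 17.2), Igfbp5 (86.3 ± 20.3), Igfbp3 (74.7 ± 34.4) and Igfbp6 (42.2 ± 7.92). Igf1 (30.2 ± 7.32), Igfbp2 (22.6 ± 9.12), Igf2r (18.9 ± 5.79), Igf2 (11.3 ± 2.72) and Igf1r (6.17 ± 0.685) followed. Neighbours in this order had ranges without overlap for Igfbp7 over Igfbp4, Igfbp3 over Igfbp6 and Igf2 over Igf1r, and the other neighbours overlapped. In the Z1C2Z samples the order was the same except that Igfbp2, at 39.3 ± 24.4 CPM per kb, stood before Igf1 at 26.5 ± 6.95. There the ranges of Igf1 and Igf2r, and of Igf2r and Igf2, did not overlap either.

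Igfbp7 made up 41.1 ± 5.83% of the summed binding protein level per kb in the controls and 34.99 ± 2.59% in the Z1C2Z samples. Its share was highest in control-5 (48.9%), where Igfbp5 had its lowest share (8.66%). Igfbp2 made up 4.21 ± 2.41% and 8.10 ± 4.77%, and reached 15.1% in Z1C2Z-4, where Igfbp7 had its lowest share (31.3%). Igf1 exceeded Igf2 per kb in all 8 samples, by a ratio of 2.27 to 4.52. Igf2r exceeded Igf1r per kb in every sample as well, by a ratio of 3.04 ± 0.907 in the controls and 2.50 ± 0.470 in the Z1C2Z samples. Shares and ratios are given as descriptions without a test.

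**Figure D3:**
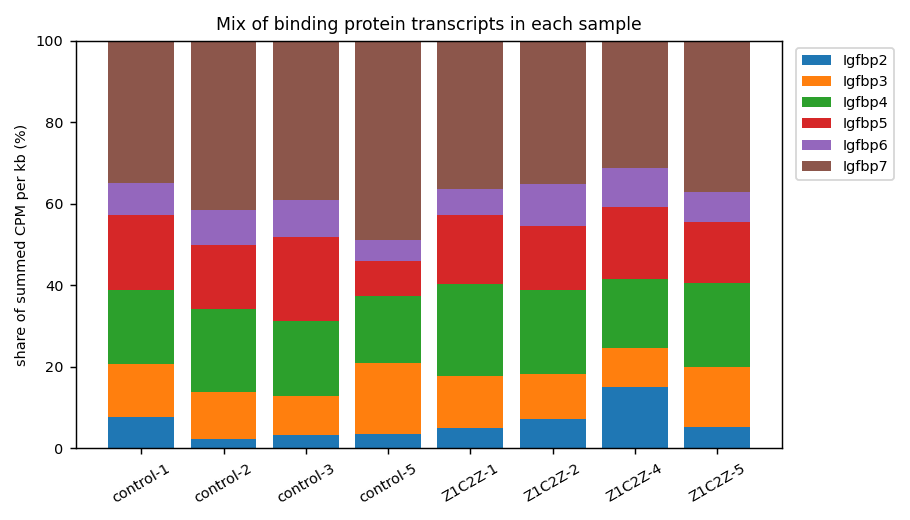
Share of each binding protein in the summed CPM per kb of Igfbp2 to Igfbp7 (stacked bars, percent) in each of the 8 samples. Igfbp7 is the largest share in every sample, from 31.3% in Z1C2Z-4 to 48.9% in control-5, and the Igfbp2 share of 15.1% sets Z1C2Z-4 apart.

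Because these are whole-tissue samples, fewer cells of a type and less RNA per cell cannot be told apart. Keratinocyte markers had at least 5703 counts in every sample, and genes of several other cell types passed the test. No fibroblast, hair, muscle, pericyte or endothelial marker was at 0 in any sample. All 10 dermal fibroblast markers had a log2 fold change under 0 (median -0.55), and 4 were called lower (Dcn, Lum, Thy1 and Loxl1). The sum of the 10 was 57066 to 80902 CPM in the controls and 44920 to 62635 CPM in the Z1C2Z samples. Among the controls it was lowest in control-1. All 10 hair shaft and matrix markers were called higher, with sums of 57.7 to 271 and 318 to 2891 CPM. All 10 skeletal muscle markers were under 0 (median -0.60) and 3 were called lower (Acta1, Myh1 and Myh2), with sums of 3640 to 6743 and 3031 to 3461 CPM. All 8 pericyte and smooth muscle markers were under 0 as well (median -0.65). Of these, 2 were called lower (Acta2 and Cnn1), with sums of 923 to 1774 and 757 to 989.8 CPM. Of all tested genes 3.85% were called lower and 4.28% higher. Fits of the IGF genes with a score of the muscle or hair markers as covariate are given below. Those scores separate the groups, so their part in the IGF values cannot be told apart from the treatment. The part of the other cell types was not tested.

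Around these genes, 65 further genes of the pathway were listed, of which 58 were tested. Of these, 8 (13.8%) were called lower and 1 (1.72%) higher, against 3.85% and 4.28% of all tested genes. None of these calls held in every fit that left out 1 sample. A log2 fold change under 0 was found for 42 (72.4%), against 48.9% of all tested genes, and the median was -0.16. Of these 58 genes, groups did not overlap for 10 lower and 6 higher. Among all 15147 tested genes the counts were 1336 lower (8.82%) and 1280 higher (8.45%). The lists were chosen with earlier results of these data known, so the shares are no test. Igfbp1, the binding protein made chiefly by liver, was not tested because it had 1 count in all, in Z1C2Z-5.

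Of 7 tested genes that bind or release IGFs, none passed edgeR's test (5 under 0, median log2 fold change -0.25). The lowest p belonged to Adam12, a metalloprotease that cuts IGFBP3 and IGFBP5, with 209, 386, 382 and 321 CPM in the controls and 228, 135, 113 and 224 CPM in the Z1C2Z samples. Its log2 fold change was -0.89 (SE 0.27, edgeR adjusted p = 0.0729), and control-1 lay among the Z1C2Z samples. Without control-1 it was -1.06 and the gene was called (edgeR adjusted p = 0.0423), as it was by DESeq2 with all samples (adjusted p = 0.00909). These were the only 2 of the 15 alternatives that called Adam12. Across the 8 fits that left out 1 sample, its log2 fold change ran from -1.06 to -0.74 and its edgeR adjusted p from 0.0423 to 0.190. Pappa, which encodes the IGFBP4 protease PAPP-A, had 21.5 ± 2.64 and 17.9 ± 1.04 CPM without overlap (log2 fold change -0.26, edgeR adjusted p = 0.155).

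Of 9 tested proteins that share the IGFBP domain but stand outside the family, 3 were called lower, all of the CCN family of matricellular proteins. Ccn1 (Cyr61) had 139.8, 90.8, 81.9 and 242 CPM in the controls and 44.9, 46.6, 39.8 and 41.5 CPM in the Z1C2Z samples. The Z1C2Z samples lay together below all controls, which spread widely, and the log2 fold change was -1.68 (SE 0.31, edgeR adjusted p = 0.0303). Ccn2 (connective tissue growth factor) fell from 140 ± 32.9 to 75.6 ± 12.6 CPM (log2 fold change -0.89, SE 0.18, edgeR adjusted p = 0.0309). Ccn4 fell from 136 ± 29.4 to 70.8 ± 21.9 CPM (log2 fold change -0.94, SE 0.24, edgeR adjusted p = 0.0471), with control-1 below the highest Z1C2Z sample.

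Downstream of the receptors, 27 genes of insulin and IGF signalling were tested, and 2 were called lower and 1 higher (median log2 fold change -0.09). Irs2, an adaptor that docks on the activated receptor, had 42.8, 32.1, 34.1 and 63.6 CPM in the controls and 24.2, 21.5, 27.6 and 24.4 CPM in the Z1C2Z samples (log2 fold change -0.82, SE 0.21, edgeR adjusted p = 0.0461). Pik3cb, a catalytic subunit of PI3K, went the other way, with 39.2, 41.3, 43.4 and 28.8 CPM in the controls and 65.1, 56.2, 58.3 and 50.9 CPM in the Z1C2Z samples (log2 fold change 0.59, SE 0.14, edgeR adjusted p = 0.0378). Irs2 and Pik3cb had groups without overlap.

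Of 8 genes that regulate IGF production, all had a log2 fold change under 0 and 3 fell (median -0.60). Socs2, a feedback inhibitor of growth hormone signalling, had 28.7, 24.7, 29.7 and 30.5 CPM in the controls and 16.7, 16.8, 20.0 and 20.2 CPM in the Z1C2Z samples. Its groups stood well apart, with a log2 fold change of -0.62 (SE 0.11, edgeR adjusted p = 0.0299). Igf2bp2, an RNA-binding protein that binds Igf2 mRNA, had 14.2, 16.2, 14.6 and 23.8 CPM in the controls and 6.77, 6.35, 4.90 and 10.3 CPM in the Z1C2Z samples (log2 fold change -1.28, SE 0.25, edgeR adjusted p = 0.0303). Jak2, the kinase that the growth hormone receptor activates, also fell (log2 fold change -0.93, SE 0.18, edgeR adjusted p = 0.0303).

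Among 7 tested imprinted growth genes none passed edgeR's test (median log2 fold change -0.25). Peg3, a paternally expressed zinc finger gene, had 99.7 ± 18.2 and 142 ± 13.4 CPM (log2 fold change 0.51, edgeR adjusted p = 0.0538) and Mest, also paternally expressed, had 232 ± 46.2 and 126 ± 43.4 CPM (log2 fold change -0.88, edgeR adjusted p = 0.0608), both without overlap. DESeq2 called both, at adjusted p of 0.0113 for Peg3 and 0.00575 for Mest. Without control-3 edgeR called Peg3 higher (adjusted p = 0.0395), and it called Mest lower without control-1 (0.0471) and without Z1C2Z-5 (0.0425). With DESeq2 counted, these were the only calls in the 15 alternatives, 2 for Peg3 and 3 for Mest. In the 8 fits that left out 1 sample, the edgeR adjusted p reached 0.146 for Peg3 and 0.167 for Mest. The log2 fold changes ran from 0.42 to 0.62 and from -1.03 to -0.72.

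None of the 9 pathway calls held in all 8 fits that left out 1 sample. EdgeR called no gene of the whole table when control-5 was left out, nor in the fits without Z1C2Z-1, without Z1C2Z-2 and without Z1C2Z-4, and 3100 to 4208 genes had an unadjusted p under 0.05. Without control-2, 2 pathway genes were called lower and none higher, and without control-3, 2 were called higher. Irs2 was also not called without control-1 (edgeR adjusted p = 0.0592) or Z1C2Z-5 (0.0622), nor Ccn4 without control-3 (0.0880). No pathway gene was called with the skeletal muscle or the hair marker score as a covariate. Both scores separated the groups, however. The muscle score was at least -0.131 in the controls and at most -0.196 in the Z1C2Z samples. The hair score was at most -0.223 in the controls and at least 0.0208 in the Z1C2Z samples. A score that follows the groups this closely cannot be told apart from the treatment, so lost calls say nothing on either tissue. With the muscle score the log2 fold changes of the 8 genes named here lay between 0.54 (Pik3cb) and -1.41 (Igf2bp2), larger in size than without it for Ccn2 (-1.01), Ccn4 (-1.399), Igf2bp2 and Socs2 (-0.63) and smaller for Ccn1 (-1.16), Irs2 (-0.56), Jak2 (-0.80) and Pik3cb. With the hair score they were smaller in size for 7 of the 8, down to -0.22 for Jak2 and -0.86 for Ccn1, and larger for Ccn2 (-1.25). Over the 8 fits that left out 1 sample, the edgeR adjusted p ranged from 0.0175 to 0.0903 for Socs2, and its log2 fold change from -0.69 to -0.57.

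**Figure D4:**
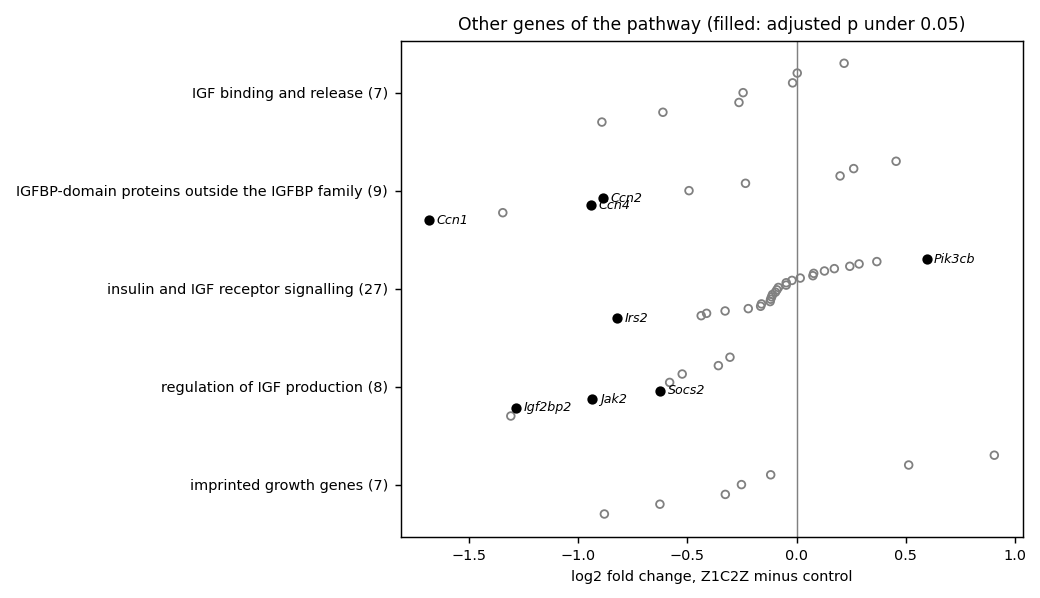
Log2 fold change (Z1C2Z minus control) of the 58 tested genes of the pathway lists, by list, with the number tested in brackets, without 1 gene that is not reported here. Filled points passed the test (edgeR adjusted p under 0.05) and are named. Ccn1 lies lowest at -1.68, Pik3cb is the filled point over 0, and all 8 genes that regulate IGF production lie under 0.

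Among 14059 other genes, those most like Igf1 over the 8 samples were Cdon, N4bp2 and Plce1, with Pearson correlations of log2 CPM of 0.988, 0.987 and 0.984. Those most like Igf2 were Senp6 (0.961), Aspn (0.959) and Postn (0.950), and those most like Igf1r were Abcc4 (0.995), Nfasc (0.983) and Grk5 (0.981). Within the system, the highest correlations were between Igfbp3 and Igfbp7 (0.853) and between Igf1 and Igf2r (0.849), and the lowest between Igfbp2 and Igf2r (-0.899) and between Igfbp2 and Igf1 (-0.871). These values describe 8 samples of 2 groups that share library and depth within each sample, and carry no test.

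**Figure D5:**
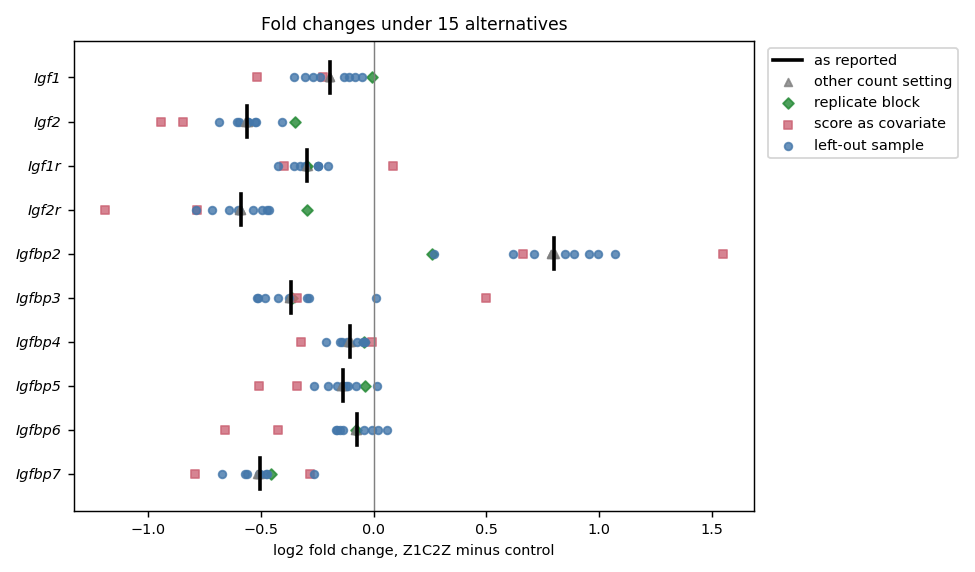
Log2 fold change (Z1C2Z minus control) of the 10 genes as reported (bar) and under 15 alternatives (points): other count settings, the sample number as a block, a muscle or hair score as covariate, and each sample left out. Igf2, Igf2r and Igfbp7 stay under 0 and Igfbp2 over 0 in all 15, while Igf1r, Igfbp3, Igfbp5 and Igfbp6 cross 0 in at least 1.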

How the data were processed

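The values used are the deposited counts, which the authors left raw, of 8 samples in 1 table with gene symbols and Entrez identifiers. Per the labels, ribosomal RNA was removed and dUTP was used in the second strand. The aligner, counting program, genome build and strand setting are not given in the sources used here, so no coordinates are printed. Samples were grouped by their titles, and 0 columns of per-sample values were left unused. No pair of libraries was as alike as sampling noise allows.

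Analysis used edgeR 4.0.16 with limma 3.58.1 under R 4.3.3. The filterByExpr function kept 15147 genes, which were scaled by TMM. The quasi-likelihood test of edgeR compared the groups without covariates, with Benjamini-Hochberg adjustment over all of these genes. Log2 CPM used a prior count of 2. Each SE is the log2 fold change divided by the square root of its F statistic. Single genes were also compared by an exact two-sided permutation test over 70 arrangements. The steps were tested on simulated data. Alternatives were DESeq2 1.42.0, RLE scaling, leaving the low-count filter out, a minimum of 10 counts per sample, a block, 2 covariates and each sample left out. Exon lengths are union exon lengths from GENCODE M21, matched by symbol for all 10 genes.

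The 10 genes, the pathway lists and the marker lists were chosen with earlier results of these data known. All 10 genes are named, and so is every called gene of a pathway list, or otherwise its 2 genes with the lowest unadjusted p, and the 3 genes most correlated with Igf1, Igf2 and Igf1r among those with a mean of at least 1 CPM. Of the genes this rule selects, 1 is counted in its list but not reported here.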

Additional observations from a re-analysis of the deposited data

Results flagged for a closer look

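Ccn4 had 91.6 CPM in control-1, far from the other 3 controls, which lay between 149 and 151 CPM. On the log2 scale the gap was 0.976 of the group's range, above the 95% critical value of Dixon's test for 4 samples. It was the only flag among 46 groups of 4 samples, from 23 genes in 2 groups, and chance flags about 1 in 20 groups.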

How the results depend on the processing

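No IGF gene was called higher in any of the 15 alternatives, and none lower in 13, with 1 called lower by DESeq2 (Igf2) and 0 to 2 in the fits that left out 1 sample. Pathway genes called higher numbered 0 to 2 and lower 0 to 11 in those fits. RLE scaling and both filters kept all 4 counts as reported. DESeq2 called 4 pathway genes higher and 11 lower, and 2756 genes of the table, against 1231 by edgeR. With the skeletal muscle score as covariate 0 pathway genes were called in either direction, and also 0 with the hair score. EdgeR called 1 gene of the table in each of these fits, and 3316 and 642 genes had an unadjusted p under 0.05. Both scores separated the groups without overlap, so these fits cannot tell them apart from the treatment. The replicate block (sample numbers 1, 2 and 5) gave 0 pathway genes higher and 4 lower, no IGF gene, 554 genes in all, and a log2 fold change of -0.35 for Igf2 (edgeR adjusted p = 0.319). Same-numbered samples correlated by -0.101, -0.0623 and 0.323 in their deviations, which does not meet the bar for pairing. Not every sample correlated best with its own number, although control-5 and Z1C2Z-5 did, and whether any share a mouse is unknown. Signs turned for Igf1r (0.0841) and Igfbp3 (0.50) with the hair score, for Igfbp3 without control-5, Igfbp5 and Igfbp6 (0.0183) without control-3, and Igfbp6 without Z1C2Z-1. Over the fits that left out 1 sample, log2 fold changes ran from -0.51 to 0.00935 for Igfbp3, from -0.26 to 0.0137 for Igfbp5, from -0.17 to 0.0584 for Igfbp6, from -0.35 to -0.0513 for Igf1 and from -0.21 (without control-1) to -0.0394 (without control-2) for Igfbp4. The muscle score moved Igf2 to -0.84, Igf2r to -1.19, Igfbp2 to 1.55, Igf1 to -0.52 and Igfbp4 to -0.32, and the hair score moved Igf2 to -0.94 and Igfbp4 to -0.00781. The replicate block moved Igf2r to -0.30, Igfbp2 to 0.26 and Igf1 to -0.00779. In that fit control-3 and Z1C2Z-4 shared their number with no sample of the other group. They therefore added nothing to the group difference, which came from numbers 1, 2 and 5. Beyond this, the cause of the shifts was not tested. With 4 samples a group, the intervals of single genes, not their counting error, limit what can be seen.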

Other observations

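Other cell types of the wound gave these values. Of 10 keratinocyte markers none was called, with sums of 13860 to 16282 CPM in the controls and 14901 to 20455 CPM in the Z1C2Z samples. None of 10 macrophage markers was called, although all had a log2 fold change under 0, with sums of 2670 to 3306 and 1600 to 2730 CPM. None of 7 tested neutrophil markers was called, with sums of 578 to 1505 and 169 to 663 CPM, and Ly6g and Camp were at 0 in at least 1 sample. None of 8 adipocyte markers was called (902 to 1197 and 798 to 1461 CPM), nor any of 5 tested hematopoietic markers (142 to 232 and 96.8 to 161 CPM). Of 8 dermal papilla markers only Fgf7, a growth factor for keratinocytes, was called lower, and the sums were 90.0 to 163 and 62.1 to 84.3 CPM. Fgf7 and Crabp1, which make up most of that sum, were the 2 markers of the list with a log2 fold change under 0 (-1.35 and -0.81), while the other 6 were over 0 and the median of the list was 0.074.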
